A study of Mus musculus with 47 samples.

Results

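The basal epithelial cells of the mouse mammary gland were compared between early and mid pregnancy, day 3.5 (P3.5) and day 14.5 (P14.5). The comparison used 5 RNA-seq libraries of the 46 in the series, picked by their cell type and time point labels. It was chosen with earlier results of these data known. P3.5 had 3 basal libraries (P3_2B, P3_4B and P3_6B) and P14.5 had 2 (P14_3B and P14_6B), and each of the 5 came from a separate sort of glands pooled from 4 mice. All mice were FVB/N females, and those that became pregnant were mated at 8 weeks of age. Negative selection had used antibodies to markers of blood, endothelium and stroma. Basal cells had been gated as Lin- CD24+ CD29hi and luminal cells of the same sorts as Lin- CD24+ CD29lo. Gates were kept alike as far as possible and shifted a little between sorts. A further P14.5 basal library had been set aside by the authors as an outlier and was not analysed here. All libraries of both time points shared 1 RNA amplification batch, but those of P3.5 were sequenced on lane 5 and those of P14.5 on lane 6, so lane and time point cannot be told apart.

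Basal cells form the outer layer of the mammary ducts and alveoli, sit on the basement membrane, and include the contractile myoepithelial cells that squeeze out milk when oxytocin reaches them, together with cells of stem and progenitor character. Early pregnancy is a time of cell division and side branching, and by mid pregnancy alveoli have budded and the luminal cells facing the lumen have begun to make milk proteins. Dividing cells express replication genes in S phase and mitotic genes in G2 and M phase, while Wnt and lysophosphatidic acid are signals that basal cells of the gland can receive through their own receptors.

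The P3.5 basal libraries held 13818887, 11185770 and 10984471 reads in genes, and the P14.5 libraries P14_3B and P14_6B held 4463977 and 5658476. Levels are given in counts scaled to the library total (CPM, the deposited unit), always in the order P3_2B, P3_4B and P3_6B and then P14_3B and P14_6B. In those 5 libraries a level of 3 reads, taken as the floor below which a fold is only a bound, was 0.170, 0.224, 0.217, 0.620 and 0.494 CPM. Changes are differences of the mean log2(CPM + 1), P14.5 minus P3.5, fitted with limma over all 46 libraries. A gene was called when it changed at least 2-fold with a Benjamini-Hochberg adjusted p under 0.01 over 17078 genes. The spread within a group of 2 libraries is poorly known, and the fit takes it from all 16 conditions.

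All 5 libraries carried the basal label's defining transcripts. The basal keratin Krt5 stood at 2227, 3050.2 and 3092 CPM at P3.5 and 1606 and 779 CPM at P14.5, against 9.84, 14.8 and 13.1 CPM in the 3 luminal libraries of P3.5. Trp63, which encodes the basal transcription factor p63, stood at 905, 665 and 606 CPM at P3.5 and 500.1 and 464 CPM at P14.5, and the 3 luminal libraries of P14.5 held 2.94, 8.36 and 3.8 CPM. Acta2, the smooth muscle actin of myoepithelial cells (named here after its values were seen), stood at 4826, 5793 and 5883 CPM at P3.5 and 8612 and 6631 CPM at P14.5, with 16.6, 23.3 and 29.8 CPM in the P3.5 luminal libraries. For each of the 3 genes every basal library lay far above every luminal one. None of the 3 was called between the time points, with adjusted p of 0.391, 0.715 and 0.75.

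Marker transcripts of other cell types were also higher in the P14.5 libraries than in the P3.5 libraries, and not in equal amounts. The 18 fibroblast markers summed to 1025, 910 and 1195 CPM at P3.5, led by Fbn1 in P3_2B and P3_4B and by Dcn in P3_6B, and to 14805 and 7118 CPM at P14.5, led by Col3a1 in P14_3B and by Col1a1 in P14_6B. The 16 endothelial markers summed to 28.2, 32.8 and 109 CPM at P3.5 and to 1535 and 536 CPM at P14.5, where Ptprb and Cdh5 led. The 12 pericyte markers summed to 92.4, 88.2 and 162 CPM and then to 1512 and 1319 CPM, with Rgs5 highest in both P14.5 libraries. Every P14.5 sum exceeded every P3.5 sum, and P14_3B exceeded P14_6B in all 3 lists. No fibroblast, endothelial or pericyte marker was at 0 in either P14.5 library, whereas at P3.5 2 endothelial markers were at 0 in P3_2B and in P3_4B, 1 pericyte marker was at 0 in each of the 3 libraries, and no fibroblast marker was.

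Luminal markers were skewed the other way. The 24 luminal markers summed to 743, 1166 and 954 CPM at P3.5, with Krt19 highest, to 1139 CPM in P14_3B and to 3525 CPM in P14_6B, with Wfdc18 highest. Set against the luminal library of the same sort, the median luminal marker stood at 6.24%, 9.59% and 9.94% of its luminal level at P3.5, at 10.0% in P14_3B and at 36.9% in P14_6B. Thus P14_3B lay next to the P3.5 libraries for luminal markers, and P14_6B lay far above them. The 13 immune markers summed to 29.8, 43.8 and 46.7 CPM and then to 142 and 139 CPM, with Cd74 the highest in all 5. Since these are bulk libraries, fewer cells of a type and less RNA per cell cannot be told apart. Whether other cells in the sorts or the basal cells themselves supplied these transcripts was not tested. The study proposes that its basal population itself expresses stromal genes. The part that other cell types had in the differences below was not tested.

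**Figure D1:**
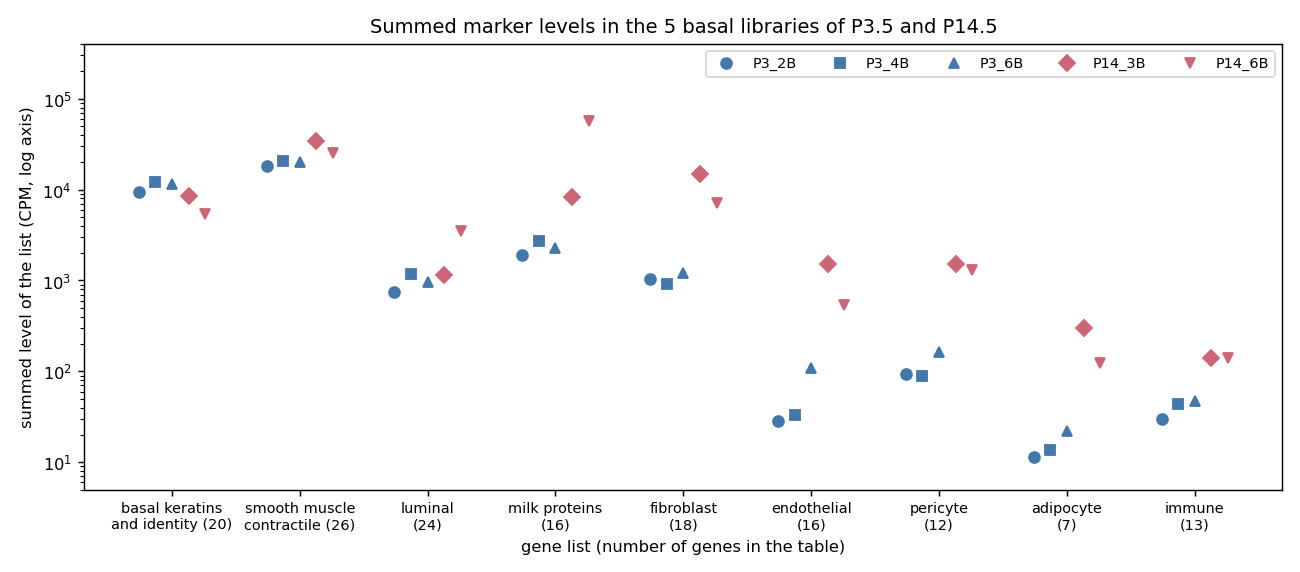
Summed level in CPM (log axis) of 9 marker lists in each of the 5 basal libraries, with P3.5 in blue and P14.5 in red and 1 point per library. Fibroblast, endothelial and pericyte sums were higher in both P14.5 libraries than in any of P3.5, with P14_3B above P14_6B, while luminal and milk protein sums were highest in P14_6B.

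Between P3.5 and P14.5, 420 genes were called higher in basal libraries, 2.46% of those tested, and 202 were called lower, 1.18%. Genes of connective tissue, milk proteins and lipid uptake made up most of the largest increases. The largest falls were mostly those of serpins, keratins and galactosidase-like genes that luminal cells scarcely express, together with genes of cell division and DNA repair. All 622 called genes, 3.64% of those tested, had both P14.5 libraries outside the range of the 3 P3.5 libraries, but so did many uncalled genes, since 22.3% of all genes had both P14.5 libraries above that range and 22.2% had both below it. Each P14.5 library taken alone differed at least 2-fold from the P3.5 mean for 408 of the 420 genes called higher and for 172 of the 202 called lower.

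Of the 420 genes called higher, 121 were at least 2-fold higher in P14_3B than in P14_6B on the log2(CPM + 1) scale and 38 the reverse, against 9.26% and 5.55% of all genes. Of the genes called higher, 309 were higher in both P14.5 basal libraries than in the luminal libraries of the same 2 sorts, and 84 were lower in both, against 31.4% and 29.3% of all genes. Of the genes called lower, 103 were higher in each P3.5 basal library than in each P3.5 luminal library, and 0 were lower in each, against 22.7% and 18.2% of all genes. Counts moved when single libraries were left out: 108 higher and 49 lower without P14_3B, 222 and 73 without P14_6B, 180 and 101 without P3_2B, 224 and 133 without P3_4B, and 268 and 93 without P3_6B. On the recovered whole reads, edgeR's quasi-likelihood test called 338 higher (1.98%) and 79 lower (0.463%).

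**Figure D2:**
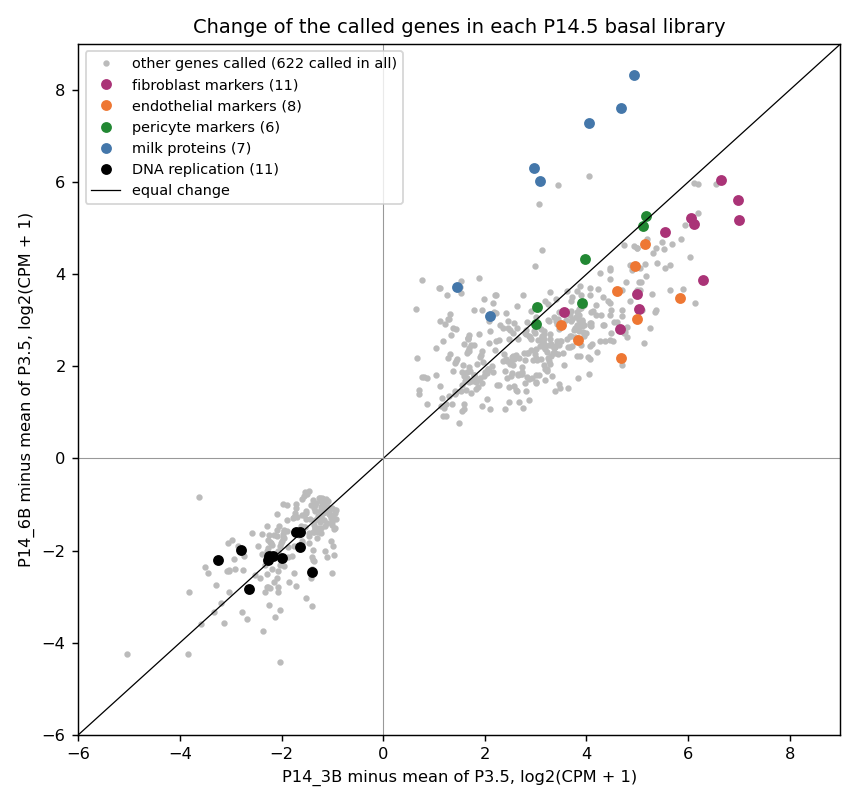
Change of each called gene in P14_3B (horizontal) and P14_6B (vertical) against the mean of the 3 P3.5 libraries, in log2(CPM + 1), with members of 5 gene lists coloured and the diagonal marking equal change. Fibroblast and endothelial markers fall below the diagonal, milk proteins above it, and DNA replication genes near it in the lower left.

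Structural genes of connective tissue were higher at P14.5. Of the 18 fibroblast markers 11 were called higher and none lower, against 2.46% and 1.18% of all genes. Their median log2 change was 4.13, against -0.00 over all genes. Col1a1, which encodes a chain of fibrillar collagen I, stood at 25.7, 15.4 and 97.9 CPM at P3.5 and 3507 and 2329 CPM at P14.5 (log2 change 6.35, SE 1.30, adjusted p = 0.00169). Pdgfra, a receptor of stromal fibroblasts, stood at 2.71, 2.61 and 6.13 CPM at P3.5 and 214 and 136 CPM at P14.5 (log2 change 5.23, SE 1.20, adjusted p = 0.00456). An antibody to its protein, listed by the study as against the human form, was part of the negative selection. Both genes were higher in P14_3B than in P14_6B, and the groups did not overlap. In the 3 luminal libraries of P14.5, Col1a1 was at 28.8, 27.4 and 14.6 CPM and Pdgfra at 1.39, 2.46 and 2.7 CPM. The count of 11 became 0 without P14_3B, 2 without P14_6B, 1 without P3_2B and 0 without P3_4B, and it was 2 with edgeR, although all 18 members lay above the P3.5 range in both P14.5 libraries.

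Vessel genes moved alongside. Of the 16 endothelial markers 8 were called higher (median log2 change 3.38), and of the 12 pericyte markers 6 were (median 3.06), against 2.46% of all genes. Cdh5, the adhesion molecule of endothelial junctions, stood at 2.43, 2.68 and 13.6 CPM at P3.5 and 201 and 142 CPM at P14.5 (log2 change 4.90, SE 1.01, adjusted p = 0.00172). Rgs5, a regulator of G protein signalling known from pericytes, stood at 17.8, 9.84 and 58.5 CPM at P3.5 and 798 and 753 CPM at P14.5 (log2 change 5.08, SE 0.75, adjusted p = 3.72e-05). Kcnj8, a potassium channel subunit of pericytes, stood at 0.792, 0.224 and 1.23 CPM at P3.5 and 25.6 and 33.4 CPM at P14.5 (log2 change 4.16, SE 0.59, adjusted p = 2.22e-05) and kept its call under all 15 alternatives run on it. The P3.5 library P3_6B was the highest of its group for all 3 genes, and still lay well below either P14.5 library. The endothelial count fell to 0 without P14_3B, 3 without P14_6B, and 1 without P3_2B or without P3_4B, and the pericyte count to 4 without either P14.5 library. The endothelial sum was also high in a P14.5 luminal library, at 619 CPM in P14_2L, against 51.3 and 145 CPM in P14_3L and P14_6L.

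Blood and fat markers gave fewer calls, to be read beside the 2.46% of all genes called higher. Fabp4, a fatty acid binding protein of adipocytes and capillaries, was at 2.83, 1.27 and 13.8 CPM at P3.5 and 251 and 92.5 CPM at P14.5 (log2 change 4.93, SE 0.87, adjusted p = 0.000444), and with Plin4 it made 2 called of the 7 adipocyte markers measured, both calls ending without P14_3B (0.0277 and 0.0494) and Plin4's also without P3_6B (0.0101). The beta globin Hbb-bs was at 0, 0.149 and 0.144 CPM at P3.5 and 11.2 and 6.75 CPM at P14.5, at least 40.03-fold higher against the P3.5 floor (log2 change 3.15, SE 0.76, adjusted p = 0.00708), and was the 1 called of 4 erythroid markers, although reads may be split with its near copy Hbb-bt and the call ended without any 1 of the 5 libraries (adjusted p of at least 0.0192). Of the 13 immune markers none was called by limma, 5 had an unadjusted p under 0.05 and edgeR called 1. Ptprc, which encodes CD45, was at 0.0566, 0.224 and 1.01 CPM at P3.5 and 3.92 and 0.329 CPM at P14.5. Its P14_6B value was under the floor of 3 reads and lay inside the P3.5 range. None of the 7 Schwann cell markers was called (limma, with 3 at an unadjusted p under 0.05 and 0 by edgeR) and none of the 7 skeletal muscle markers (likewise 3 and 0).

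A few matrix genes outside those lists were called higher. Lama2, the laminin alpha 2 chain of muscle and mesenchymal basement membranes, stood at 3.05, 0.373 and 6.64 CPM at P3.5 and 327 and 215 CPM at P14.5 (log2 change 6.25, SE 1.12, adjusted p = 0.000477). With it 4 further laminin and basement membrane genes of the 23 measured were called higher, Nid2, Lamc3, Col4a3 and Col4a4, against 2.46% of all genes (list median log2 change 0.31, 8 members negative). Of these 5 edgeR called 1, Lama2, and without P14_3B the calls of Lama2 (0.0155), Nid2 (0.0488), Lamc3 (0.0392) and Col4a4 (0.0705) ended, that of Nid2 also without any other library and that of Col4a4 without P3_6B (0.0131). Spon1, a secreted matrix protein, stood at 1.81, 3.28 and 8.44 CPM at P3.5 and 299 and 162 CPM at P14.5 (log2 change 5.51, SE 0.81, adjusted p = 3.72e-05). Mmp3, a metalloproteinase that degrades matrix, stood at 0.226, 0 and 0.505 CPM at P3.5 and 49.8 and 28.1 CPM at P14.5 (log2 change 4.97, SE 0.79, adjusted p = 0.000112). It was the 1 called of 22 proteases and inhibitors, against 2.46% of all genes called higher. For Lama2, Spon1 and Mmp3 the lowest P14.5 library was far above the highest P3.5 library, and P14_3B exceeded P14_6B. Spon1 and Mmp3 kept their calls under all 15 alternatives. For the integrin list that follows, the share of all genes called higher is the same 2.46%. Integrin subunits of the basal cell surface were not called: Itga6 was at 1109, 1063 and 841 CPM at P3.5 and 925 and 835 CPM at P14.5 and Itgb1 at 476, 536 and 536 CPM at P3.5 and 492 and 412 CPM at P14.5, with adjusted p of 0.873 and 0.703, and of 25 integrin and hemidesmosome genes only Itga7, which pairs with beta 1 to bind laminin, was called (log2 change 2.96, SE 0.60, adjusted p = 0.00154), a call that ended without P14_3B (0.0372) or P14_6B (0.0137).

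Milk protein genes were higher at P14.5 than at P3.5, chiefly in P14_6B. Of 16 milk genes 7 were called higher and none lower (median log2 change 2.61), against 2.46% and 1.18% of all genes. The same list had a median of 2.70 in luminal cells, where 9 were called higher, against 0.814% of all genes. Csn2, beta-casein, stood at 131, 158 and 177 CPM at P3.5 and 2585 and 24300.0 CPM at P14.5 (log2 change 5.67, SE 0.94, adjusted p = 0.000206), and the luminal libraries of P14.5 held 103552, 70309 and 68910.4 CPM. Csn1s2a, an alpha-casein, stood at 42.6, 63.96 and 94.2 CPM at P3.5 and 1669 and 12582 CPM at P14.5 (log2 change 6.15, SE 0.97, adjusted p = 0.000112). In both genes P14_6B lay several fold above P14_3B, which in turn lay above all of P3.5. Relative to the luminal library of the same sort the median milk gene was at 7.55%, 5.27% and 7.96% at P3.5, at 3.86% in P14_3B and at 33.3% in P14_6B. Without P14_6B none of the 16 was called, and without any 1 of the other 4 libraries 6 or 7 were.

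Of the 24 luminal markers 4 were called higher and none lower, against 2.46% and 1.18% of all genes. Their median log2 change was 0.51, with 7 members negative, 5 of them below the P3.5 range in both P14.5 libraries. Elf5, the transcription factor of alveolar luminal cells, stood at 9.56, 10.4 and 10.97 CPM at P3.5 and 23.6 and 146 CPM at P14.5 (log2 change 2.41, SE 0.58, adjusted p = 0.00642). Ehf, its close relative in the ETS family, stood at 21.1, 24.5 and 20.9 CPM at P3.5 and 117 and 164 CPM at P14.5 (log2 change 2.60, SE 0.49, adjusted p = 0.000663). Both were above the P3.5 range in both P14.5 libraries, Elf5 chiefly in P14_6B, and both calls were lost without P14_6B, where the log2 changes were 1.12 and 2.35 (adjusted p of 0.355 and 0.0193), and that of Elf5 also without P3_2B (0.0238), P3_4B (0.0188) or P3_6B (0.0176). Elf5, Ehf, Trf and Wfdc18 were those 4 (63.5% of the exon bases of Trf are shared with another gene, so its reads are uncertain), and Trf and Wfdc18 too were not called without P14_6B (0.2 and 0.297) or without P3_2B (0.0234 and 0.0407) or P3_6B (0.0108 and 0.0159), nor Wfdc18 without P3_4B (0.0235). Krt8 was at 55.6, 113 and 135 CPM at P3.5 and 102 and 192 CPM at P14.5 and Krt19 at 159, 258 and 182 CPM at P3.5 and 95.2 and 467 CPM at P14.5, with groups that overlapped. In luminal cells themselves 5 of the 24 luminal markers were called lower and 1 higher, against 0.709% and 0.814% of all genes. Prom1, a surface glycoprotein, and Cited1, a transcriptional cofactor, were among those lower (luminal log2 changes -2.69 and -4.41, adjusted p of 0.00888 and 0.00848). In basal libraries Prom1 was at 16.8, 23.9 and 16.5 CPM at P3.5 and 3.92 and 2.47 CPM at P14.5. Cited1 was there at 19.5, 51.4 and 35 CPM at P3.5 and 0.826 and 12.8 CPM at P14.5. Neither was called in basal libraries, with log2 changes of -2.26 and -2.75 and adjusted p of 0.0356 and 0.124. Gjb2 and Gjb6, connexins 26 and 30 of gap junctions, rose, Gjb2 from 9.33, 6.64 and 5.34 CPM to 62.0 and 143 CPM (log2 change 3.59, SE 0.74, adjusted p = 0.00185), and were the 2 called of 17 junction genes, neither of them without P14_6B (0.0526 and 0.182), and Gjb6 not without any 1 of the other 4 libraries either (0.0114 to 0.0525) or with edgeR (0.0333). Beside those 2 of 17, 2.46% of all genes were called higher. Gjb2 and Gjb6 are abundant in the luminal libraries of P14.5, Gjb2 at 441, 763 and 422 CPM.

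A few genes of lipid uptake and synthesis were called higher. Lpl, lipoprotein lipase, which frees fatty acids from circulating lipoproteins, stood at 4.18, 1.94 and 6.28 CPM at P3.5 and 352 and 298 CPM at P14.5 (log2 change 6.08, SE 0.57, adjusted p = 8.23e-09), and its call held under all 15 alternatives. Cd36, a fatty acid transporter, stood at 1.13, 0.224 and 6.42 CPM at P3.5 and 186 and 170.0 CPM at P14.5 (log2 change 6.06, SE 1.07, adjusted p = 0.00043), with 0.0103 without P14_3B. Unlike the caseins, both genes were at similar levels in P14_3B and P14_6B, and the P14.5 luminal libraries held 759.7, 651 and 708 CPM of Lpl. Thrsp, a lipogenic protein, stood at 0.566, 0.149 and 0.649 CPM at P3.5 and 22.9 and 99.9 CPM at P14.5 (log2 change 5.10, SE 0.83, adjusted p = 0.000176), with Lpin1 and Acsl1 completing 3 called of 18 fatty acid synthesis genes, each highest in P14_6B and none called without it (0.0151, 0.187 and 0.49 for Thrsp, Lpin1 and Acsl1). Beside those 3 of 18, 2.46% of all genes were called higher. The calls of Lpin1 and Acsl1 also ended without P3_2B (0.0124 and 0.0157) or P3_6B (0.0114 and 0.0158), and that of Acsl1 without P3_4B (0.0223). None of the 20 cholesterol synthesis genes was called by limma (median log2 change -0.35, 16 members negative, 3 at an unadjusted p under 0.05, 0 by edgeR), and none of the 20 of glycolysis (8 and 0).

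**Figure D3:**
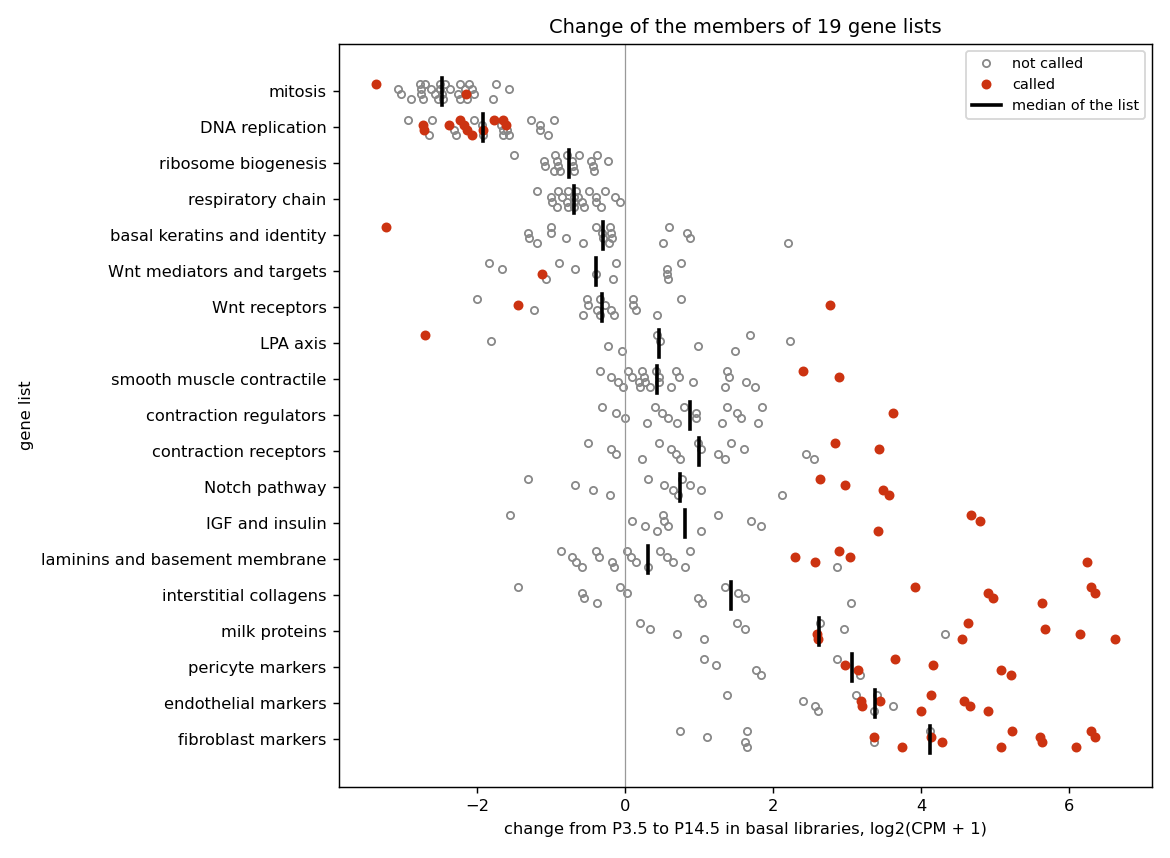
Change from P3.5 to P14.5 in basal libraries, in log2(CPM + 1), for each measured member of 19 gene lists, with called genes filled, others open and a bar at the list's median. Mitosis and DNA replication genes all lie below 0, medians of -2.47 and -1.93, and fibroblast, endothelial and pericyte markers all lie above it.

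Most genes with the largest falls were expressed in basal and scarcely in luminal cells. Serpinb11, of the serine protease inhibitor family, stood at 273, 197 and 287 CPM at P3.5 and 6.61 and 12.2 CPM at P14.5 (log2 change -4.64, SE 0.92, adjusted p = 0.00117), with 1.14, 2.09 and 1.21 CPM in the P3.5 luminal libraries. Glb1l2, a relative of lysosomal beta-galactosidase, stood at 35.8, 33.03 and 24.8 CPM at P3.5 and 1.65 and 1.65 CPM at P14.5 (log2 change -3.59, SE 0.46, adjusted p = 5.33e-06). Glb1l3, of the same family, stood at 13.97, 7.9 and 6.57 CPM at P3.5 and 0 and 0 CPM at P14.5, at least 15.3-fold lower at P14.5 against the floor (log2 change -3.33, SE 0.27, adjusted p = 3.2e-10). In these 3 genes the P14.5 libraries were within 2-fold of each other or both at 0, and far under every P3.5 library. Serpinb11's call ended without P14_3B (adjusted p = 0.0378), and with edgeR the adjusted p were 0.0214, 0.0118 and 0.015 for Serpinb11, Glb1l2 and Glb1l3, none of them under 0.01.

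Further genes of the set varied in how alike the P14.5 libraries were. Them5, a thioesterase of acyl-CoA, stood at 100.2, 129 and 114 CPM at P3.5 and 19.4 and 0.658 CPM at P14.5 (log2 change -4.30, SE 0.74, adjusted p = 0.000321), with P14_3B well above P14_6B and both below P3.5. Serpinb10, another serpin, stood at 38.9, 38.4 and 53.4 CPM at P3.5 and 2.07 and 1.32 CPM at P14.5 (log2 change -4.05, SE 0.62, adjusted p = 6.65e-05). Aqp9, a channel for water and glycerol, stood at 13.6, 21.8 and 15.7 CPM at P3.5 and 1.03 and 0.494 CPM at P14.5 (log2 change -3.35, SE 0.58, adjusted p = 0.00031). In all of these the P3.5 values lay within 2-fold of each other. Sema3b, a secreted semaphorin, Sv2b, a glycoprotein known from synaptic vesicles, and Krt42, a type I keratin, had log2 changes of -3.17, -3.06 and -3.05 and adjusted p of 0.00958, 0.000195 and 1.84e-05. The call of Them5 ended without P14_6B (0.0641), and that of Sema3b without any 1 of the 5 libraries (0.0174 to 0.0824). By edgeR none of the 10 largest falls among genes higher in basal than in luminal libraries at P3.5 passed 0.01, with adjusted p from 0.0118 (Glb1l2) to 0.0724 (Them5), so these calls depend on the test.

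**Figure D4:**
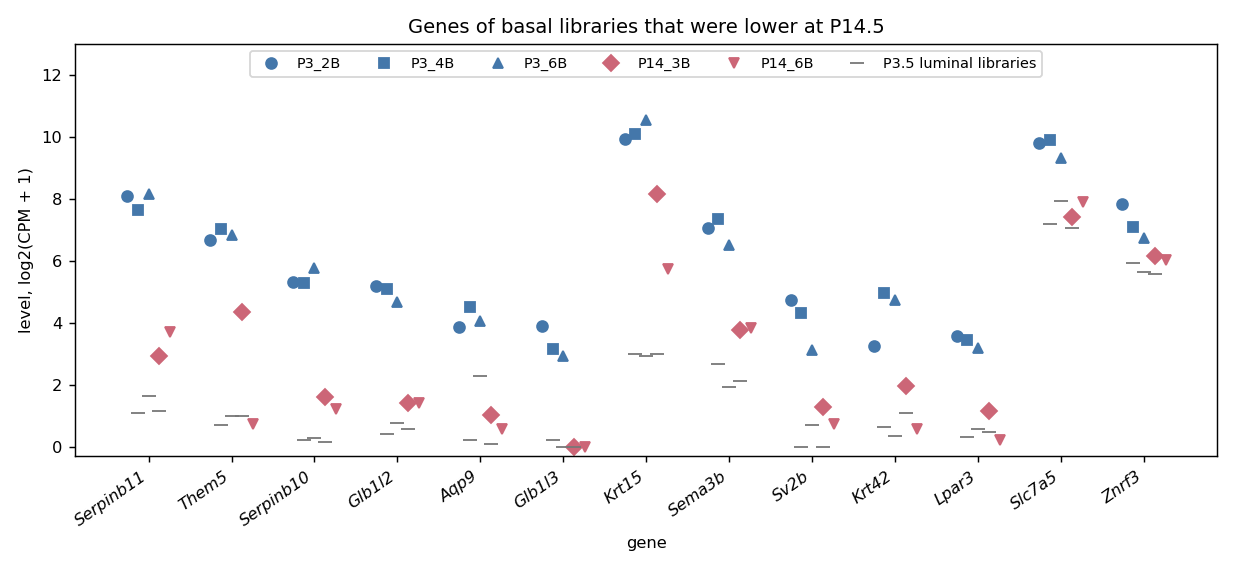
Level, in log2(CPM + 1), of 13 genes called lower at P14.5 in the 5 basal libraries (P3.5 blue, P14.5 red, 1 point per library), with the 3 luminal libraries of P3.5 as grey dashes. In each gene both P14.5 points lie below all 3 P3.5 points, and for most the luminal libraries are near 0.

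Of the basal keratins and identity genes only Krt15 was called. Krt15, a keratin of basal cells in stratified epithelia, stood at 976, 1100.4 and 1480.0 CPM at P3.5 and 283 and 53.01 CPM at P14.5 (log2 change -3.24, SE 0.71, adjusted p = 0.00318), 9.44-fold lower on this scale. P14_6B was about as far under P14_3B as P14_3B was under P3.5. The call ended without P14_6B (log2 change -2.04, adjusted p = 0.165), without P3_6B (0.0158) and with edgeR (0.0248). Krt5, Krt14 and Krt17 had log2 changes of -1.30, -0.80 and -1.32 and none was called (adjusted p of 0.391, 0.542 and 0.28), with P14_6B the lowest of the 5 libraries in each. Krt15 was the 1 called of 20 basal keratin and identity genes, against 1.18% of all genes called lower. The list's median log2 change was -0.30, and its sum went from 9321, 12069.9 and 11496 CPM at P3.5 to 8597 and 5413 CPM at P14.5.

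Of 26 basal transcription factors 3 were called higher and none lower, against 2.46% and 1.18% of all genes (median log2 change 0.58, 8 members negative, 3 below the P3.5 range in both P14.5 libraries). Foxc1, a forkhead factor, stood at 3.56, 4.995 and 2.81 CPM at P3.5 and 26.03 and 15.3 CPM at P14.5 (log2 change 2.16, SE 0.44, adjusted p = 0.00163). Id3, an inhibitor of DNA binding by basic helix-loop-helix factors, stood at 1.41, 2.68 and 6.78 CPM at P3.5 and 36.6 and 14.8 CPM at P14.5 (log2 change 2.57, SE 0.61, adjusted p = 0.00579). Zeb2, a zinc finger factor of mesenchymal cells, stood at 3.9, 1.12 and 12.8 CPM at P3.5 and 169 and 73.8 CPM at P14.5 (log2 change 4.43, SE 0.83, adjusted p = 0.000624). The list's name does not make its members particular to basal cells. Foxc1 was higher in luminal libraries, at 16.4, 23.2 and 19.6 CPM at P3.5 and 34.8, 26.15 and 22.95 CPM at P14.5. In the P3.5 luminal libraries Id3 was at 7.9, 3.6 and 9.3 CPM and Zeb2 at 0.57, 1.045 and 1.27 CPM. P14_3B was the higher of the 2 P14.5 basal libraries in all 3 genes. Without it, which leaves 1 library at P14.5, the log2 changes of Foxc1, Id3 and Zeb2 were 1.79, 1.95 and 3.84 and the calls ended. Whether other cell types had a part in these changes was not tested. Id3's call also ended without P3_2B (0.0403) or P3_4B (0.0204), and Foxc1's without P3_6B (0.0101). Snai2, a zinc finger factor of basal cells, was at 106, 115 and 108 CPM at P3.5 and 90.9 and 87.2 CPM at P14.5 (adjusted p = 0.815).

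Genes of cell division were lower at P14.5 throughout. All 30 mitosis genes and all 29 measured DNA replication genes were lower in both P14.5 libraries than in any P3.5 library, against 22.2% of all genes, with median log2 changes of -2.47 and -1.93. The called members were fewer, 2 of the mitosis genes and 11 of the replication genes, against 1.18% of all genes. Unadjusted p were under 0.05 for 30 and 26 of them, and edgeR called 1 and 4. The replication count became 1 without P14_3B, 1 without P14_6B, 4 without P3_2B, 4 without P3_4B and 5 without P3_6B. In luminal cells of the same time points the medians were -1.94 and -1.33, with 0 and 3 called lower, against 0.709% of all genes.

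Plk1, a kinase that drives entry into and passage through mitosis, stood at 50.5, 21.7 and 34.8 CPM at P3.5 and 1.45 and 3.62 CPM at P14.5 (log2 change -3.37, SE 0.80, adjusted p = 0.00613). Smc2, the core subunit of condensin, stood at 171, 134 and 117 CPM at P3.5 and 30.6 and 30.3 CPM at P14.5 (log2 change -2.16, SE 0.46, adjusted p = 0.0022). Mki67, which encodes the proliferation antigen Ki-67 and is named here after its values were seen, stood at 915, 292 and 476 CPM at P3.5 and 129.9 and 94.8 CPM at P14.5 (log2 change -2.17, adjusted p = 0.107). For all 3 the P14.5 libraries were within about 3-fold of each other and under all of P3.5, but only Plk1 and Smc2 were called, and both calls ended without P14_3B (adjusted p of 0.108 and 0.0342), without P14_6B (0.021 and 0.0236) or without P3_2B (0.0317 and 0.0147), and Plk1's also without P3_6B (0.02). Among replication genes, Mcm3, a subunit of the helicase that opens DNA at origins, stood at 129.5, 116 and 98.4 CPM at P3.5 and 17.4 and 15.1 CPM at P14.5 (log2 change -2.74, SE 0.62, adjusted p = 0.00391). Chaf1b, a subunit of the factor that places histones on new DNA, stood at 45.6, 38.3 and 36.2 CPM at P3.5 and 3.31 and 7.9 CPM at P14.5 (log2 change -2.72, SE 0.64, adjusted p = 0.00557). Neither gene differed by more than 3-fold between P14_3B and P14_6B, and Mcm3's call ended without P14_3B (0.0396), P14_6B (0.041), P3_2B (0.0184) or P3_4B (0.0133). That of Chaf1b ended without any 1 of the 5 libraries, with adjusted p from 0.0139 without P14_6B to 0.126 without P14_3B, and edgeR gave 0.0113 for Mcm3, 0.025 for Chaf1b and 0.0373 for Plk1.

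Regulators of the G1 phase divided. Cdkn1c, the cyclin-dependent kinase inhibitor p57, stood at 8.09, 6.93 and 4.91 CPM at P3.5 and 40.7 and 44.5 CPM at P14.5 (log2 change 2.53, SE 0.48, adjusted p = 0.000747), with 3.94, 1.08 and 2.62 CPM in the P14.5 luminal libraries. Rbl1, the pocket protein p107 and itself expressed in cycling cells, stood at 35.8, 30.7 and 27.5 CPM at P3.5 and 6.61 and 3.29 CPM at P14.5 (log2 change -2.49, SE 0.47, adjusted p = 0.000697). The P14.5 libraries agreed closely for Cdkn1c and lay above every P3.5 library. Ccnd1, cyclin D1, was at 403, 432 and 269 CPM at P3.5 and 244 and 422 CPM at P14.5 (adjusted p = 0.905), with overlapping groups, and its reads are uncertain because 23.4% of its exon bases are shared with another gene. The other 13 of 16 genes were not called either, and of all genes 2.46% were called higher and 1.18% lower. With a pseudocount of 0.1 Cdkn1c was not called (adjusted p = 0.0619). Cdkn1c's call ended without P14_3B (0.0137), without P14_6B (0.0138) and with edgeR (0.019), and Rbl1's without P14_6B (0.031).

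Since every mitosis and replication gene measured was lower at P14.5, the start regions of 4 are shown as RefSeq places them (GRCm38.p6), the 150 bases just before the transcription start, 5′ to 3′ on the gene's strand. They are the 2 mitosis genes called and the 2 replication genes described above. Capitals mark CCAAT or its reverse ATTGG, the letters bound by NF-Y, and TTTGAA or its reverse TTCAAA, the cell cycle homology region (CHR) of mitotic genes.
Plk1 (chr7:122159285-122159434, + strand): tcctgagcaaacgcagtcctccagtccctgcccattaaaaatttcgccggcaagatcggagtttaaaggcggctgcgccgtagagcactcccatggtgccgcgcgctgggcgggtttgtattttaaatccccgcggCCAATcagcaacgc
Smc2 (chr4:52439071-52439220, + strand): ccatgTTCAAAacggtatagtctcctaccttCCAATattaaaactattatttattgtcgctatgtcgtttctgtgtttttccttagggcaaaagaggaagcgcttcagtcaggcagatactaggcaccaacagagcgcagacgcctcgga
Mcm3 (chr1:20820313-20820462, - strand): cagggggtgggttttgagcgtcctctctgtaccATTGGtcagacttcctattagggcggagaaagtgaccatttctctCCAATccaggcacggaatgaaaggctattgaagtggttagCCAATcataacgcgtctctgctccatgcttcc
Chaf1b (chr16:93883751-93883900, + strand): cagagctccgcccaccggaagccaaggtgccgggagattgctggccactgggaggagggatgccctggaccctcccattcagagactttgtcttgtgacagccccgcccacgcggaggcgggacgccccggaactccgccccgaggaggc
In Plk1 the CCAAT lay at position -14 from the start and a TTTGAA at 31, past the end of the stretch. Mcm3 held 3 CCAAT matches, at -117, -72 and -32, and E2F letters downstream of the start, GCGGGAAA at 20 and TTTGGCGC at 39. Chaf1b held none of these letters.

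Across windows of 300 bases, 250 before and 50 after each start, and on both strands, CCAAT was found in 20 of 26 promoters of the 25 mitosis genes that matched the table (76.9%) and in 18 of 28 promoters of the 24 replication genes that did (64.3%), against 37.4% of all 32851 promoters and 36.8% of the 14951 of genes tested. The CHR letters were in 73.1% of the mitosis promoters, 10.7% of the replication promoters, 17.9% of all promoters and 12.4% of those of genes tested. The E2F letters, TTTCCCGC or TTTGGCGC or their reverse, were in 7.69%, 28.6%, 1.56% and 2.56% of the same sets. In the 15 promoters of the members called lower, CCAAT was in 60%, the CHR letters in 20% and the E2F letters in 13.3%. None of these motifs contains another, and a match is a description of the sequence, not of binding.

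Of 26 contractile genes of smooth muscle 2 were called higher and none lower, against 2.46% and 1.18% of all genes. The median log2 change was 0.44, 22 members were positive, 15 lay above the P3.5 range in both P14.5 libraries and 0 below it, and 7 had an unadjusted p under 0.05. Synm, synemin, an intermediate filament protein that links to the contractile apparatus, stood at 44.2, 48.8 and 35.8 CPM at P3.5 and 256 and 204 CPM at P14.5 (log2 change 2.40, SE 0.55, adjusted p = 0.00474), and Des, desmin, at 2.38, 1.27 and 5.92 CPM at P3.5 and 36.1 and 19.8 CPM at P14.5 (log2 change 2.89, SE 0.70, adjusted p = 0.00722). The sum of the list went from 18326, 20711 and 20285 CPM at P3.5 to 33871 and 25238 CPM at P14.5, with Acta2 the most abundant in all 5. Both P14.5 libraries were above P3.5 for Synm and Des, with P14_3B the higher. Synm was low in luminal libraries, at 4.4, 2.95 and 3.46 CPM at P14.5. Its call ended without any 1 of the 5 libraries, with adjusted p from 0.0116 without P3_4B to 0.0711 without P14_3B, and edgeR gave 0.00472. That of Des ended without P14_3B (0.12), P14_6B (0.0227), P3_2B (0.0269) or P3_4B (0.0386) and with edgeR (0.0201).

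Receptors and regulators of contraction gave 3 calls. Avpr1a, the vasopressin receptor 1A, stood at 9.9, 0.373 and 6.57 CPM at P3.5 and 71.5 and 36.4 CPM at P14.5 (log2 change 3.43, SE 0.75, adjusted p = 0.00309). Ednra, the endothelin receptor A, stood at 13.9, 7.46 and 11.9 CPM at P3.5 and 104 and 65.7 CPM at P14.5 (log2 change 2.83, SE 0.72, adjusted p = 0.00958). These were the 2 called of 18 receptors of the contractile cells, against 2.46% of all genes called higher. Both calls ended with edgeR (0.0145 each), without P14_3B (0.0785 and 0.123), without P14_6B (0.012 and 0.0347) and without P3_4B (0.034 and 0.0393), and Ednra's also without P3_2B (0.0211) or P3_6B (0.0248). Oxtr, the oxytocin receptor (named after its values were seen), was at 681, 462 and 593 CPM at P3.5 and 485 and 518 CPM at P14.5, with overlapping groups (log2 change -0.19, adjusted p = 0.931). Gucy1a1, a subunit of the guanylyl cyclase that senses nitric oxide and relaxes smooth muscle, stood at 13.97, 9.17 and 15.7 CPM at P3.5 and 167 and 168 CPM at P14.5 (log2 change 3.62, SE 0.67, adjusted p = 0.000586), the 1 called of 18 contraction regulators, but not without P14_3B (0.0136). For the contraction regulators the share of all genes called higher is the same 2.46%. Vascular smooth muscle also expresses Gucy1a1, Ednra and Avpr1a, and the pericyte sum was 92.4, 88.2, 162, 1512 and 1319 CPM in the same libraries.

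The lysophosphatidic acid (LPA) receptors, which the study singled out on these samples so that the list is not independent evidence of a direction, split by member. Lpar3, a receptor of LPA coupled to G proteins, stood at 11.03, 9.84 and 8.08 CPM at P3.5 and 1.24 and 0.165 CPM at P14.5 (log2 change -2.71, SE 0.35, adjusted p = 6.3e-06), with 0.244, 0.488 and 0.381 CPM in the P3.5 luminal libraries. Lpar5 stood at 7.58, 11.03 and 9.09 CPM at P3.5 and 2.89 and 1.15 CPM at P14.5 (log2 change -1.81, SE 0.57, adjusted p = 0.0365) and did not pass the threshold. In both the P14.5 libraries were below all of P3.5, and P14_6B was the lower. Lpar1 was at 5.26, 6.26 and 5.41 CPM at P3.5 and 27.5 and 15.1 CPM at P14.5 (log2 change 1.69, adjusted p = 0.175) and Enpp2, which encodes autotaxin, the secreted enzyme that makes LPA, at 21.5, 14.2 and 21.2 CPM at P3.5 and 94.6 and 87.2 CPM at P14.5 (log2 change 2.23, adjusted p = 0.185), both above the P3.5 range at P14.5 but not called. Thus 1 of 10 LPA genes was called lower and none higher, against 1.18% and 2.46% of all genes. Lpar3's call ended with edgeR (adjusted p = 0.0555), with a pseudocount of 0.1 (0.0117) and with the 5 basal libraries alone (0.0166).

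Among 13 Wnt ligands and 13 secreted Wnt inhibitors none was called by limma, with 4 at an unadjusted p under 0.05 in each list and 0 called by edgeR. Of 18 receptors and coreceptors 1 was called higher and 1 lower, against 2.46% and 1.18% of all genes. Fzd4 was called higher, at 3.9, 4.32 and 5.34 CPM at P3.5 and 49.99 and 26.5 CPM at P14.5 (log2 change 2.77, SE 0.58, adjusted p = 0.00212). Fzd10 was called lower, at 1.98, 1.72 and 2.31 CPM at P3.5 and 0.207 and 0 CPM at P14.5, at least 3.23-fold against the P14.5 floor (log2 change -1.45, SE 0.26, adjusted p = 0.000458). Both are Frizzled receptors of Wnt ligands, and Fzd10 was below the floor in both P14.5 libraries. The call of Fzd4 ended without P14_3B (0.0722) or P3_2B (0.0111), and that of Fzd10 without P14_6B (0.0143) and with edgeR (0.0645). Znrf3, a ubiquitin ligase that removes Frizzled receptors and is itself a Wnt target, stood at 228, 136 and 106 CPM at P3.5 and 70.6 and 64.03 CPM at P14.5 (log2 change -1.13, SE 0.29, adjusted p = 0.0098) and was the 1 called of 13 mediators and targets, a call that ended without P14_3B (0.0623), P14_6B (0.0836), P3_2B (0.086) or P3_4B (0.0192). Beside that 1 of 13, 1.18% of all genes were called lower. The median log2 change of the 13 was -0.40, with 9 members negative and 4 positive. Znrf3's call also ended with edgeR (0.0118), with a pseudocount of 0.1 (0.0134) and with median-ratio scaling (0.0129). Tcf7, a transcription factor of the pathway, was at 246, 167 and 166 CPM at P3.5 and 41.3 and 64.5 CPM at P14.5 (log2 change -1.85, adjusted p = 0.0427), and Axin2, a feedback inhibitor often used as a readout, at 21.7, 24.8 and 21.4 CPM at P3.5 and 11.8 and 8.89 CPM at P14.5 (log2 change -1.07, adjusted p = 0.243). In both genes the groups did not overlap, and neither passed the threshold. Tcf7l2, Tcf7l1 and Apcdd1 went the other way, with log2 changes of 0.75, 0.56 and 0.56. They lay above the P3.5 range in both P14.5 libraries and were not called.

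Of 16 Notch genes 4 were called higher and none lower, against 2.46% and 1.18% of all genes, with a median log2 change of 0.74 and 4 members negative. Notch3 stood at 20.4, 18.3 and 26.3 CPM at P3.5 and 179 and 170.0 CPM at P14.5 (log2 change 2.97, SE 0.54, adjusted p = 0.000502), and the luminal libraries of P3.5 held 134, 135 and 151 CPM. Dll4, a Notch ligand of endothelial tips, stood at 0.0566, 0.298 and 0 CPM at P3.5 and 13.4 and 10.9 CPM at P14.5 (log2 change 3.56, SE 0.48, adjusted p = 1.53e-05) and kept its call in all 14 alternatives. Heyl, a transcriptional target of Notch, stood at 3.17, 1.19 and 2.31 CPM at P3.5 and 43.8 and 25.8 CPM at P14.5 (log2 change 3.48, SE 0.65, adjusted p = 0.00062). Notch4 was the other called. Notch3 is also a pericyte marker and Dll4 and Notch4 are genes of endothelium, whose sums are given above. Without P14_3B the calls of Notch3 (0.0126), Heyl (0.0303) and Notch4 (0.0911) ended, that of Notch4 also without P3_2B (0.0223) or P3_4B (0.0123).

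Grb10, an imprinted adaptor that binds the insulin and IGF1 receptors and restrains growth signalling, stood at 3.17, 3.43 and 6.13 CPM at P3.5 and 72.3 and 39.7 CPM at P14.5 (log2 change 3.42, SE 0.46, adjusted p = 1.1e-05). Igf1 stood at 1.75, 1.12 and 8.3 CPM at P3.5 and 227 and 47.9 CPM at P14.5 (log2 change 4.80, SE 1.02, adjusted p = 0.0022). Igf2 stood at 0.905, 1.86 and 5.27 CPM at P3.5 and 85.5 and 79.3 CPM at P14.5 (log2 change 4.68, SE 0.83, adjusted p = 0.000444), with 62.8% of its exon bases shared with another gene, so that its reads are uncertain. Igf1 was markedly higher in P14_3B and the other two were closer between the P14.5 libraries. Igf1's call ended without P14_3B (log2 change 3.69, adjusted p = 0.0984), P3_2B (0.013) or P3_4B (0.0145), and Igf2's without P14_3B (0.0107). They were the 3 called of 14 IGF and insulin genes, against 2.46% of all genes called higher, and the list's median log2 change was 0.81 with 1 member negative. Of 13 EGF, 15 FGF, 22 TGF-beta and BMP, and 16 steroid and prolactin receptor genes none was called by limma or by edgeR, with 3, 4, 5 and 6 at an unadjusted p under 0.05.

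Slc7a5, the transporter that brings large neutral amino acids such as leucine into cells, stood at 894, 953 and 632 CPM at P3.5 and 169 and 236 CPM at P14.5 (log2 change -2.02, SE 0.37, adjusted p = 0.000586), 4.07-fold lower. The P14.5 libraries were alike, and the luminal libraries went from 145, 241 and 134 CPM at P3.5 to 399.8, 305 and 304 CPM at P14.5. It was the 1 called of 14 amino acid transport genes, and its call ended only without P14_3B (0.0307) and with the 5 basal libraries alone (0.0137). For this list and for the unfolded protein response below, the share of all genes called lower was 1.18%. Pdia6, a protein disulfide isomerase of the endoplasmic reticulum, was at 143, 128 and 191 CPM at P3.5 and 75.6 and 57.1 CPM at P14.5 (log2 change -1.19, SE 0.30, adjusted p = 0.0098), the 1 called of 20 genes of the unfolded protein response. This call ended without any 1 of the 5 libraries (0.0141 to 0.127), with edgeR (0.018) and with median-ratio scaling (0.0149).

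Genes of energy and ribosome production leaned downward without calls. All 23 measured respiratory chain genes had a negative change (median log2 change -0.69), 17 of them below the P3.5 range in both P14.5 libraries against 22.2% of all genes, and the median in luminal cells was 0.24. All 18 ribosome biogenesis genes did too (median -0.76), 16 of them below the range. Neither list had a call by limma or edgeR, and 14 and 9 members had an unadjusted p under 0.05. Of 16 clock genes Npas2 and Rora were called higher, Npas2 at 0.509, 0.746 and 0.361 CPM at P3.5 and 12.8 and 9.38 CPM at P14.5 (log2 change 2.97, SE 0.58, adjusted p = 0.000969), calls that ended without P14_3B for Npas2 (0.0313) and without P14_6B for Rora (0.0367). Beside those 2 of 16 clock genes, 2.46% of all genes were called higher. None of 19 immediate early and heat shock genes, which can rise during tissue handling, was called (limma, with 5 at an unadjusted p under 0.05 and 0 by edgeR), nor any of 18 interferon response genes (7 and 0).

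The change from P3.5 to P14.5 was then compared between basal and luminal cells, in a test of the difference between the 2 changes. It was called for 33 genes, 0.193% of all, 21 with the more positive change in basal cells and 12 with the more negative. Slc7a5 fell in basal cells while its luminal log2 change was 0.99 (difference -3.01, SE 0.50, adjusted p = 0.00107). Grb10 rose in basal cells while its luminal log2 change was -0.82 (difference 4.24, SE 0.61, adjusted p = 0.000174). Gnai1, an inhibitory G protein subunit (chosen for mention after its values were seen, like Lgr4 and Tbx3), stood at 202, 133 and 132 CPM at P3.5 and 121 and 119 CPM at P14.5 in basal libraries and went from 2.44, 3.21 and 2.35 CPM to 27.5, 48.1 and 31.2 CPM in luminal ones (difference -3.63, SE 0.68, adjusted p = 0.00489). Lgr4, a receptor of R-spondins that strengthens Wnt signalling, differed likewise (-2.47, SE 0.50, adjusted p = 0.00878), with a luminal log2 change of 2.13, and Tbx3, a T-box transcription factor, fell in luminal cells (log2 change -2.63, adjusted p = 9.02e-05) and was not called in basal ones (log2 change 0.79, adjusted p = 0.282), with a difference of 3.42, SE 0.60, adjusted p = 0.00224. Thus some of the 33 rest on the basal change and others on the luminal one: 22 were called in basal cells, 9 of them lower, and 11 were not.

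Glb1l3, Glb1l2 and Lpar3 also differed, by -3.25, SE 0.37, adjusted p = 1.92e-06, by -3.27, SE 0.61, adjusted p = 0.00489 and by -2.38, SE 0.47, adjusted p = 0.00713. All 3 genes were near 0 in luminal libraries at both time points, and could fall little there on this scale. For cell division no such difference was called: Plk1's changes were -3.37 and -2.04 (difference -1.33, SE 1.08, adjusted p = 0.656), and Mcm3's -2.74 and -1.89 (difference -0.84, SE 0.83, adjusted p = 0.728). With the sort of origin as a block for basal and luminal libraries that were sorted together (consensus correlation 0.179), 68 and 28 genes were called in place of 21 and 12. Fewer were called with edgeR or without some single libraries, as counted further below.

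Levels in the other 17 basal libraries place P3.5 and P14.5 among the 8 time points: 10 weeks (W10), P3.5 (P3), P14.5 (P14), lactation days 3 and 10 (L3, L10), involution day 2 (Id2) and week 4 (Iw4), and 4 months (M4). Krt15 averaged 127 CPM at W10, 1186 at P3, 168 at P14, 697 at L3, 607 at L10, 0.442 at Id2, 185 at Iw4 and 392 at M4. Serpinb11 averaged 13.1 CPM at W10, 252 at P3, 9.4 at P14, from 0 to 0.0437 between L3 and Id2, and 25.4 and 44.5 at Iw4 and M4. Slc7a5 averaged 252 CPM at W10 and 245 at M4, against 826 at P3 and 202 at P14. P3 was thus the highest of the 8 for all 3 genes, and the P14 mean of Slc7a5 lay under those of W10 and M4.

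The same holds for Mcm3, with means of 13.2 CPM at W10, 115 at P3, 16.2 at P14 and 10.9 at L3, and for Lpar3, whose P3 mean of 9.65 CPM exceeded the 2.31 CPM at Iw4 and the 0.855 CPM at W10. Synm was lowest at P3, at 42.9 CPM, against 222 at W10, 229.8 at P14 and 1519 at L3. Cdkn1c had its highest mean at P14, 42.6 CPM, followed by 18.7 at L3. Col1a1 averaged 2918 CPM at P14 and 11098 at Id2, where single libraries ranged from 1148 to 27788 CPM. Rgs5 averaged 775 CPM at P14 and 7608 at L10. The contrast with P3 therefore sets P14 against the time point at which Mcm3, Plk1, Krt15, Serpinb11, Lpar3 and Slc7a5 stood highest among the basal groups. Milk protein sums ran from 1914 to 2736 CPM at P3 and from 2785 to 7969 at W10. They ran from 4511 to 16862 CPM at Iw4 and from 5202 to 13274 at M4. The 8355 CPM of P14_3B lay inside both of these ranges. Median endothelial sums were 32.8 CPM at P3, 221 at W10 and 207 at M4, and pericyte ones 92.4, 184.5 and 261.5 CPM. Fibroblast medians were 1025 CPM at P3 and 952 at W10.

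**Figure D5:**
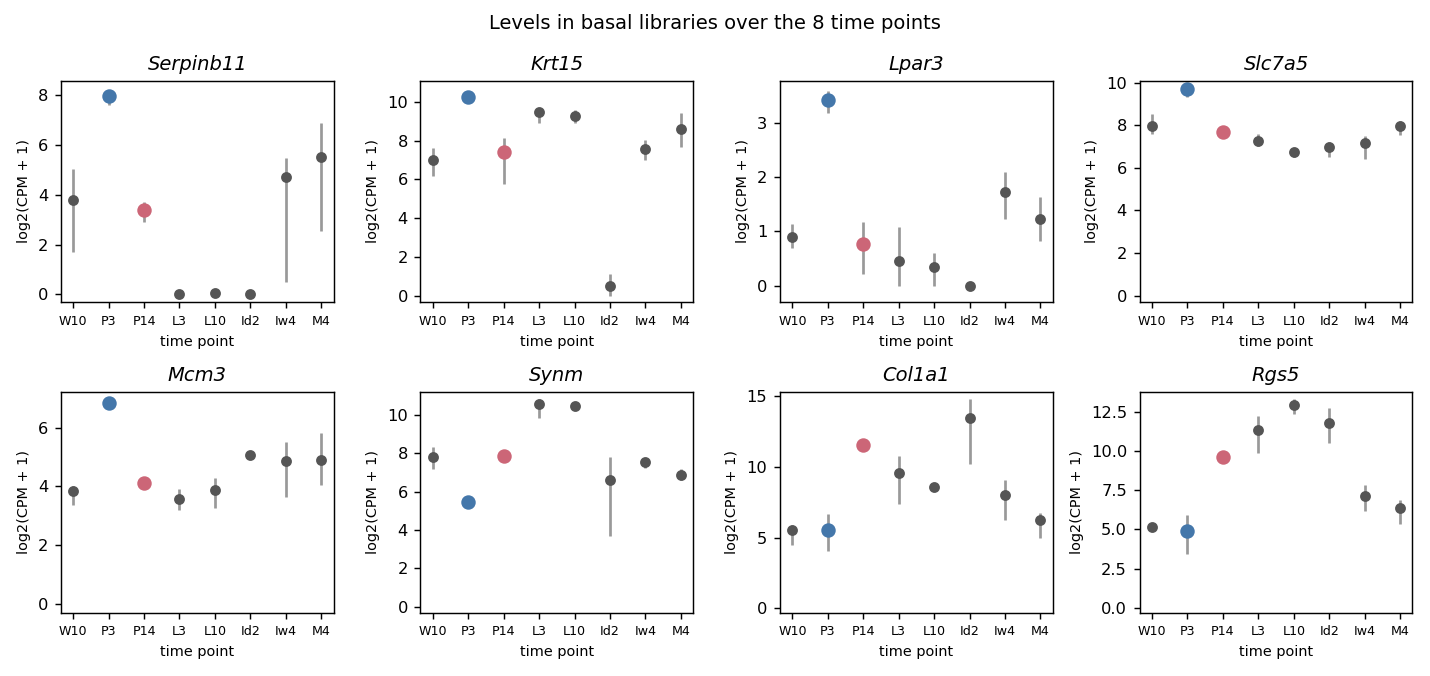
Levels of 8 genes in basal libraries over the 8 time points, in log2(CPM + 1), with a point at the log2 of the group mean plus 1 and a line from the lowest to the highest library, P3.5 in blue and P14.5 in red. Serpinb11, Krt15, Lpar3, Slc7a5 and Mcm3 are highest at P3.5, Synm is lowest there, and Rgs5 is highest at L10.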

How the data were processed

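RNA (5 ng per library) had been amplified with the Ovation system and sequenced on a HiSeq, and reads were aligned by the authors with GSNAP to mm9 and counted per Ensembl gene with HTSeq. The deposited signal is the gene count relative to library size (CPM) after edgeR scaling factors, with genes of low count removed by the authors. Whole reads were recovered for 100% of values in every library (tolerance 0.01). The depths in the 46 libraries ran from 4398806 to 20023054 reads.

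Here log2(CPM + 1) of 17078 genes (16897 with a symbol) was fitted with limma 3.58.1 in R 4.3.3, with an intensity trend and 16 group means over 46 libraries. Genes were called at a 2-fold change and a Benjamini-Hochberg adjusted p under 0.01. As an alternative, the recovered reads were tested with edgeR 4.0.16 (quasi-likelihood), which called 338 genes higher and 79 lower. All adjusted p are from limma unless edgeR is named.

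Named genes were the 10 largest called changes each way with a mean of at least 5 CPM in the higher group, the 10 largest among genes higher in basal than in luminal libraries, list members called (the 4 largest each way), members of short pathways and defining markers of other cell types. The comparison, lists and members were chosen with earlier results of these data known. Exon overlaps came from GENCODE annotation of GRCm38, and counting by strand was not assumed. Nothing pairs P3.5 with P14.5 basal libraries. Luminal and basal libraries of 1 sort deviated together only weakly (consensus correlation 0.179). Alternatives were another threshold, pseudocount (0.1), scaling, filter, test and spread, thinned reads, the sort as a block, and each library left out.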

Additional observations from a re-analysis of the deposited data

Results flagged for a closer look

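A test of the difference between the basal and the luminal change from P3.5 to P14.5 singled out 33 genes, of which 6 are named by the fixed rules. Those with the more negative change in basal cells were Glb1l3 (log2 difference -3.25, SE 0.37, adjusted p = 1.92e-06), Glb1l2 (-3.27, SE 0.61, adjusted p = 0.00489), Lpar3 (-2.38, SE 0.47, adjusted p = 0.00713) and Slc7a5 (-3.01, SE 0.50, adjusted p = 0.00107). Those with the more positive change were Grb10 (4.24, SE 0.61, adjusted p = 0.000174) and Id3 (4.19, SE 0.82, adjusted p = 0.00659). Slc7a5 was lower at P14.5 in both basal libraries and higher in all 3 luminal libraries than in any luminal library of P3.5, Grb10 the reverse. No group had 4 or more libraries, so single libraries could not be tested as outliers within a group.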

How the results depend on the processing

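No result reversed under any alternative run. At an FDR of 0.05 the calls were 870 higher and 551 lower in basal cells, 92 and 38 for the difference from luminal cells, 17 DNA replication genes and 14 endothelial markers. With the spread of the 22 basal libraries alone they were 154 higher and 75 lower, with 4 replication genes, 4 milk genes, 4 fibroblast markers and 1 endothelial marker. With only the 5 libraries compared they were 70 higher and 33 lower, with 0 milk genes, 2 fibroblast markers, 1 endothelial marker and 2 pericyte markers. With edgeR they were 79 lower, 10 and 2 for the difference, 4 replication genes, 2 fibroblast markers and 5 endothelial markers. A pseudocount of 0.1 gave 12 and 4 for the difference and 3 fibroblast markers, and a minimum mean of 5 CPM gave 5 on its negative side. Under the other settings that keep all libraries and have no block, these counts stayed within 1.5 times. Among smaller lists, edgeR called 1 laminin and basement membrane gene in place of 5, 1 in place of 2 for mitosis, contractile, contraction receptor and junction genes, and 0 in place of 1 for LPA, basal keratin, unfolded protein response and Wnt mediator genes, for Wnt receptors called lower and for G1 genes called higher. Of the named genes called, 73 higher and 23 lower, 17 and 7 were called with only the 5 libraries compared. With the spread of the 22 basal libraries 32 and 13 were, and with a pseudocount of 0.1 51 and 12 were. The cause of these moves was not tested.

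Leaving out 1 library at a time gave 108 to 268 genes higher, 49 to 133 lower, 7 to 23 and 5 to 9 for the difference, 1 to 5 replication genes, 0 to 7 milk genes, 0 to 10 fibroblast markers, 0 to 7 endothelial markers and 4 to 6 pericyte markers. Where this leaves P14.5 with 1 library, that library is assumed to vary like the other groups. Of the named genes called, 73 higher and 23 lower, 22 and 11 were called without P14_3B, 31 and 9 without P14_6B, 39 and 14 without P3_2B, 38 and 17 without P3_4B, 57 and 17 without P3_6B, and 50 and 4 with edgeR. The count without P14_3B (108) shared 75 genes with the 420, and that without P14_6B (222) shared 174.

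With the sort as a replicate block the counts were 459 higher and 230 lower, of which 417 and 202 were shared with the calls given, and 68 and 28 for the difference. Same-sort basal and luminal libraries share a sort, but basal libraries of P3.5 and P14.5 have no pairing.

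The P14.5 libraries held 4463977 and 5658476 reads, fewer than any of P3.5, so genes near their floors of 0.620 and 0.494 CPM are poorly measured there. Thinning P3.5 to 5061226 reads gave 435 higher and 208 lower. Median-ratio scaling shifted the basal changes by 0.0699 on the log2 scale and gave 450 higher and 151 lower.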

Other observations

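Several genes outside the fixed lists, chosen here after their values were seen from the genes whose change differed between basal and luminal cells, fell or rose in basal libraries. Cpa6, a secreted carboxypeptidase, stood at 24.6, 19.2 and 23.7 CPM at P3.5 and 4.34 and 1.15 CPM at P14.5 (log2 change -2.79, SE 0.39, adjusted p = 1.84e-05), and the luminal libraries of P3.5 held 0, 0.279 and 0 CPM. Krt73, a type II keratin known from the hair follicle, stood at 3.73, 6.86 and 4.19 CPM at P3.5 and 0 and 0 CPM at P14.5, at least 7.95-fold lower against the P14.5 floor. Slc38a5, a transporter of glutamine and related amino acids, stood at 1.98, 3.06 and 4.91 CPM at P3.5 and 0 and 0.494 CPM at P14.5, at least 5.35-fold lower. These 3 genes lay under all P3.5 values in both P14.5 libraries and were close to 0 in luminal libraries.

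In the other direction, Edn3, which encodes the peptide endothelin 3, stood at 0, 0.149 and 0.0722 CPM at P3.5 and 3.51 and 3.13 CPM at P14.5, at least 14.8-fold higher against the P3.5 floor. Il1r1, the receptor of interleukin 1, stood at 6.96, 9.1 and 10.9 CPM at P3.5 and 85.3 and 55.3 CPM at P14.5 (log2 change 2.82, SE 0.48, adjusted p = 0.000275). Osmr, a subunit of the oncostatin M receptor, stood at 135, 305 and 173 CPM at P3.5 and 519.9 and 256 CPM at P14.5, with overlapping groups, while in luminal libraries it went from 109, 264 and 157 CPM at P3.5 to 56.3, 27.03 and 36.03 CPM at P14.5, and its changes differed by 3.01, SE 0.59, adjusted p = 0.00713. Whether cells other than basal cells supplied Edn3 or Il1r1 was not tested.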
